A study of Mus musculus with 2 samples.

Results

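Rab, Arf, Arl and Sar1 GTPases and the coat, tether and translocon genes that work beside them were examined in lymphomas of L-DKO mice. Members were all genes of the deposited expression table whose symbols begin with Rab, Arf, Arl or Sec and a number, or with Sar1, Trappc, Tbc1d, Copa, Copb, Cope, Copg or Copz. The rule found 112 of the 8249 genes in the table, and all 112 reached 1 FPKM (mapped fragments scaled to transcript length and library size) in at least 1 library. They comprised 29 Rab GTPases, 17 Arf, Arl and Sar1 GTPases, 14 Tbc1d genes, 11 TRAPP subunits, 10 genes of the COPII coat and its scaffold and 7 of the COPI coat. Another 7 encode the Sec61 translocon or signal peptidase, 6 encode regulators or effectors that carry a Rab number, and 6 encode proteins named as partners of an Arl. The last 5 were Sec22a, Sec22b, Sec22c, Sec14l1 and Rab10os, a transcript from the strand opposite Rab10. GENCODE M21, a mouse annotation, names 186 coding genes that match the rule, of which 111 were in the table. The others were not analysed here.

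Rab GTPases mark the membranes of the cell. In the GTP-bound state a Rab sits on its own compartment and recruits motors, tethers and fusion factors, exchange factors (GEFs) switch it on, and GTPase-activating proteins (GAPs), most of which carry a TBC domain, switch it off. Sar1 and Arf1 instead build coats. Sar1 assembles COPII, which carries new proteins from the endoplasmic reticulum (ER), and Arf1 assembles COPI, which returns material within the Golgi and to the ER. TRAPP complexes are tethers and the GEFs of Rab1. In T cells these routes deliver and recycle the T cell receptor and release cytokines and granules.

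The libraries came from 1 CD1d tetramer-negative tumour in a Peyer's patch of a 26-week-old mouse and 1 in the thymus of a 30-week-old mouse. The labels give both mice as strain L-DKO and list no treatment, and the series title ties the strain to high levels of E proteins, which are transcription factors of T cell development. RNA came from lysed tumour tissue per the labels' protocols, whereas the series' design text describes sorted cells. With 1 library per tumour no difference has a replicate check and no test is possible, and site, mouse and age cannot be told apart. All 15 listed T cell markers were measured in both libraries, with a summed level of 4918 FPKM in the Peyer's patch lymphoma and 2814 FPKM in the thymic lymphoma. Depth is unknown, because the table holds no counts. In tumour RNA, fewer cells of a type and less RNA per cell cannot be told apart.

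In the deposited FPKM, vesicle traffic genes were measured at like levels in both tumours as a class, and fewer of them stood far apart than of all genes. Their summed level was 7622 FPKM in the Peyer's patch lymphoma and 7680 FPKM in the thymic lymphoma, and the median member stood at 32.7 and 36.4 FPKM. All 8245 genes with at least 1 FPKM in a library summed to 3415190 and 4969541 FPKM, so the likeness in level depends on scaling. Each difference is the Peyer's patch value of log2(FPKM + 1) minus the thymic value, and genes are called apart when it reaches 2 in either direction (4-fold). By this measure 12 of the 112 members were apart (10.7%), against 19.9% of all 8245 genes with at least 1 FPKM in a library. Only 2 of the 12, Sec24b and Rab35, were higher in the Peyer's patch lymphoma, where 7.84% of all genes were. The other 10 were higher in the thymic lymphoma, where 12.0% of all genes were. At 2-fold, 46 members (41.1%) were apart, against 50.2% of all genes, with 21 higher in the Peyer's patch lymphoma (24.7% of all genes) and 25 in the thymic lymphoma (25.5% of all genes). The share apart was lower at higher levels. With all genes cut into 4 equal bins of mean level, it was 24.4% of all genes in the lowest bin and 13.5% in the highest, and 5 of 22 and 0 of 27 of the members there. The median difference was -0.01 over members and 0.05 over all genes.

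This split by direction depended on how the libraries were scaled. Scaling by median ratio left 2 members 4-fold higher in the Peyer's patch lymphoma and 11 in the thymic lymphoma. Scaling by upper quartile left 2 and 10. The summed FPKM includes single values as high as 816954 in the Peyer's patch lymphoma and 1650000 in the thymic lymphoma. With each library rescaled to the same summed FPKM, 10 members lay 4-fold or more above their thymic level and 5 below it. The authors' standard scores gave the same counts. All genes turned the same way, with 1197 of 8245 above and 641 below after rescaling, and 1218 and 624 with the standard scores. In both settings 13.4% of members were apart, against 22.3% of all genes. Those scalings moved the median of all genes to 0.57 and 0.48, and the median of members to 0.50 and 0.35. In each of the 6 alternatives run for single genes, 6 of the 12 members stayed 4-fold apart. These were Sec24b, higher in the Peyer's patch lymphoma, and Sec24a, Sec22a, Arl4a, Tbc1d22b and Rab43, higher in the thymic lymphoma.

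**Figure D1:**
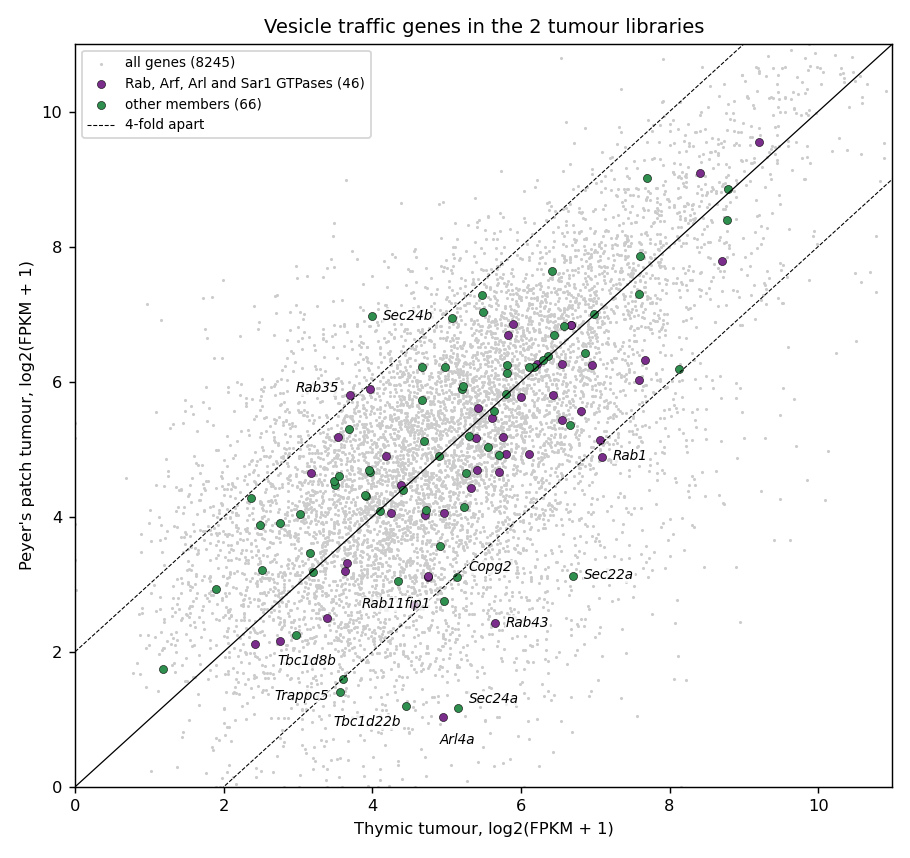
Level of each gene as log2(FPKM + 1) in the thymic lymphoma (horizontal axis) and the Peyer's patch lymphoma (vertical axis). Grey points are all 8245 genes (those above 11 lie outside the axes), purple points the 46 GTPases, green points the other 66 members, and dashed lines mark 4-fold; the 12 named members lie beyond them, 10 of them on the thymic side.

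The GTPases leaned towards the thymic lymphoma, and the median of the other members lay close to that of all genes. Of the 46 GTPases 32 were higher in the thymic lymphoma, with a median difference of -0.59, whereas 40 of the other 66 members were higher in the Peyer's patch lymphoma, with a median of 0.18. Of the 8 of those 66 that were 4-fold apart, 7 were higher in the thymic lymphoma. Over all genes, 51.4% had the higher value in the Peyer's patch lymphoma. By family the median was -0.31 for Rab GTPases and -0.87 for Arf, Arl and Sar1 GTPases. It was 1.04 for TRAPP subunits, 0.73 for Arl partner genes, 0.32 for COPII and 0.24 for COPI, and -0.63 for the 3 Sec22 genes with Sec14l1. It lay within 0.02 of 0 for the translocon and signal peptidase (0.02), the Tbc1d genes (-0.02) and the Rab regulators (0.01). After rescaling to the same summed FPKM the sign of the Rab median changed to 0.15, and that of the Arf, Arl and Sar1 median stayed below 0 at -0.35. Set against the median of all genes in the same setting, the GTPase median lay lower by 0.64 as reported, by 0.64 after that rescaling and by 0.51 with the standard scores. In those settings 13, 13 and 11 of the 46 GTPases lay above the median of all genes. The median of the other 66 members lay above it by 0.13, 0.14 and 0.08, with 35, 35 and 36 of them above. No test of the difference between families can be had from 1 library each.

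**Figure D2:**
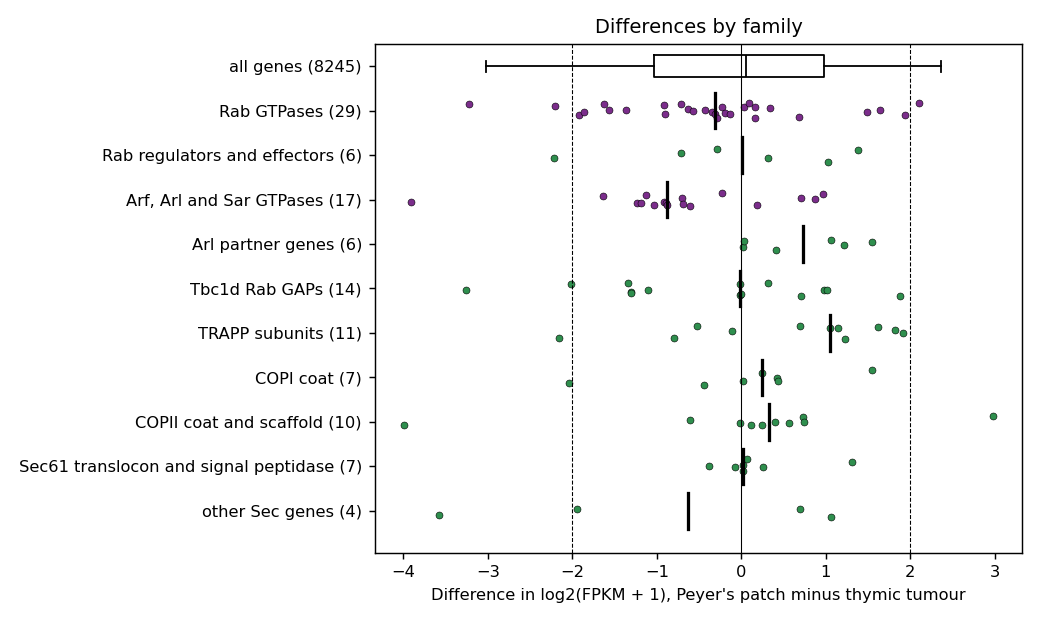
Difference in log2(FPKM + 1), Peyer's patch minus thymic lymphoma, for 111 members by family, Rab10os not plotted (points, with the number of genes in brackets) and for all genes (box, quartiles; whiskers, 5th to 95th percentiles). Black bars are family medians and dashed lines mark 4-fold; GTPases are purple, and the Arf, Arl and Sar1 median of -0.87 lies farthest below 0.

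The 3 Rabs with the highest mean levels were Rab8a, Rab7 and Rab11a. Rab8a, which directs transport to the cell surface and the primary cilium, was the most abundant member of all in both tumours, at 745 FPKM in the Peyer's patch lymphoma and 589 FPKM in the thymic lymphoma. It alone made up 29.2% and 20.4% of the summed Rab FPKM. Rab7, the Rab of late endosomes and lysosomes, stood at 543 and 339 FPKM. Rab11a, which governs recycling endosomes, stood at 221 and 416 FPKM. Each of the 3 lay above at least 90.3% of all genes in both libraries.

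The Rabs of the ER-to-Golgi step held both Rab GTPases that were 4-fold higher in the thymic lymphoma. Rab1, written so in the table and listed by RefSeq as an older name of Rab1a (and of Rnase4), drives fusion of ER-derived vesicles at the Golgi. It reached 28.6 FPKM in the Peyer's patch lymphoma and 135 FPKM in the thymic lymphoma, a difference of -2.20 that was -1.67 after rescaling to the same sum. Its close relative Rab1b differed little, at 35.0 and 41.2 FPKM (-0.23). Rab43, which acts in ER and Golgi transport, was at 4.37 and 49.3 FPKM (-3.23). Of the longest Rab43 transcript 90.5% is shared with Gm45140, a gene model on the same strand that overlaps it, so how reads were divided between them is uncertain. The remaining Rabs of this step were close in both tumours. Rab2a stood at 113 and 101 FPKM, Rab2b at 15.7 and 18.1 FPKM, and Rab18, also known from lipid droplets, at 75.4 and 73.5 FPKM.

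Early endosomal Rabs diverged within the Rab5 set. Rab5a, a regulator of early endosome fusion, was higher in the Peyer's patch lymphoma at 35.1 against 10.6 FPKM (1.64). The more abundant Rab5c differed by 0.16, at 113 and 101 FPKM, and Rab5b by -0.44, at 8.14 and 11.4 FPKM. Rab21, which takes part in integrin endocytosis, was just short of 4-fold at 34.2 and 132.9 FPKM (-1.93). Rab22a was at 8.92 and 11.6 FPKM.

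Most recycling and surface Rabs were higher in the thymic lymphoma, 7 of 10, but by less than 4-fold. Rab4b, of the rapid recycling route, stood at 64.1 and 191 FPKM, although 78.4% of its transcript is shared with the overlapping model Gm21983. Rab11b stood at 78.5 and 203 FPKM, and Rab8b at 20.5 and 39.3 FPKM. Against that direction went Rab35, which returns cargo from endosomes to the surface and has been tied to the T cell synapse. It reached 54.5 FPKM in the Peyer's patch lymphoma and 12.0 FPKM in the thymic lymphoma, a difference of 2.10 that was 1.81 with 5 FPKM added instead of 1. Dennd1a, which encodes a GEF of Rab35, was at 73.3 and 15.9 FPKM (2.13) and was picked out after its value was seen. Rab14 (-0.63), Rab12 (-0.72), Rab10 (-0.29) and Rab4a (0.10) differed by less.

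Rabs of the Golgi and of late organelles went both ways. Rab19, a Golgi-associated Rab, was at 58.6 and 14.6 FPKM, and its difference of 1.93 was just short of 4-fold. Rab6a, which controls retrograde transport at the Golgi, stood at 35.3 and 53.2 FPKM and its relative Rab6b at 3.33 and 4.37 FPKM. Rab24, linked to autophagy, was higher in the Peyer's patch lymphoma (24.2 and 8.02 FPKM) and Rab9, which returns receptors from late endosomes to the Golgi, in the thymic lymphoma (7.71 and 26.0 FPKM). Rab28, known from cilia, was at 5.49 and 22.6 FPKM (-1.87). Rab27a, needed for release of cytotoxic granules, was nearly level at 43.2 and 47.7 FPKM.

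**Figure D3:**
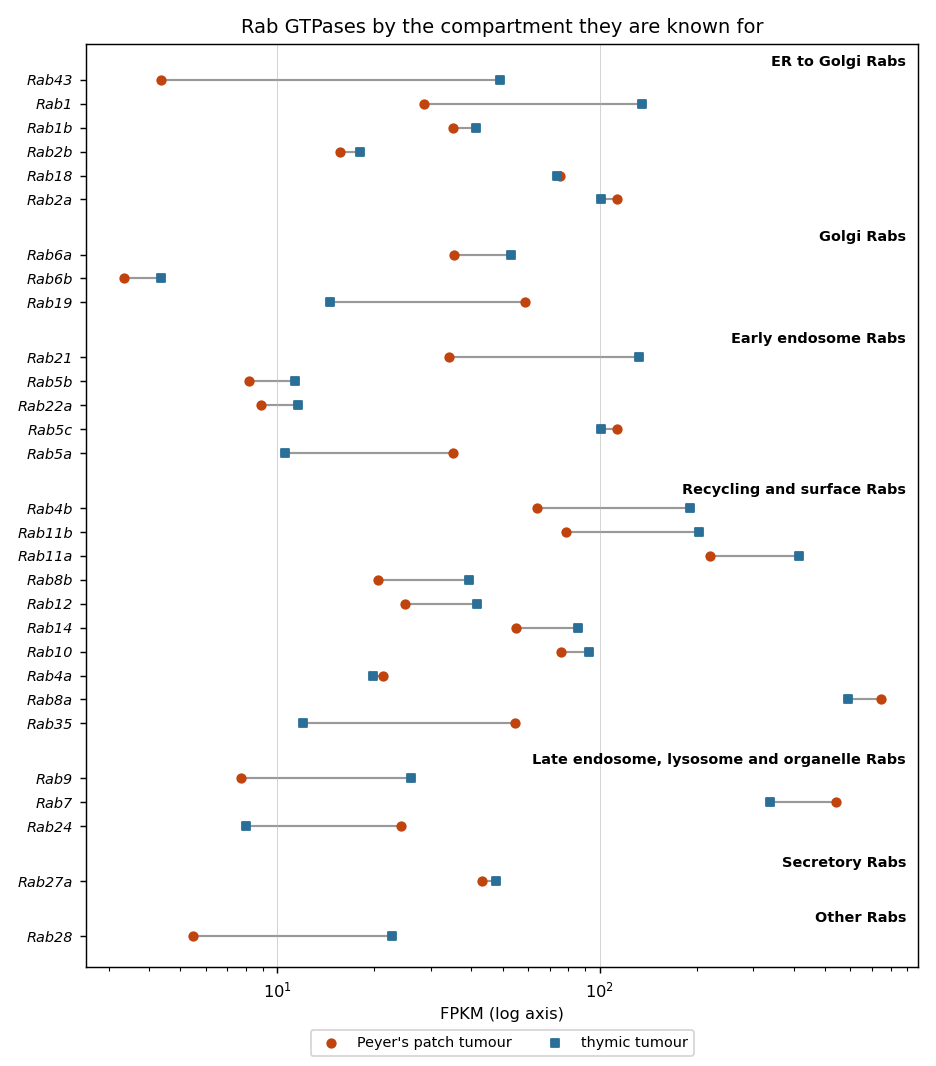
FPKM (log axis) of the 29 Rab GTPases in the Peyer's patch lymphoma (circles) and the thymic lymphoma (squares), 1 library each, grouped by the compartment each is known for. Grey lines join the values of a gene; Rab43 and Rab1 show wide gaps with the square to the right, Rab35 and Rab19 with the circle to the right.

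Arf, Arl and Sar1 GTPases were mostly higher in the thymic lymphoma, 13 of 17. Among the Arf genes the direction followed no single pattern. Arf1, the main recruiter of COPI, was at 75.2 and 123 FPKM, Arf4 at 24.3 and 50.9 FPKM and the plasma membrane Arf6 at 29.4 and 68.3 FPKM. Arf3 (103 and 55.8 FPKM) and Arf5 (114.9 and 58.5 FPKM) were higher in the Peyer's patch lymphoma. No Arf gene reached 4-fold, and their summed levels were close at 347 and 357 FPKM. Gbf1, the GEF that activates Arf1 at the Golgi, differed far more, at 4.59 and 114.9 FPKM (-4.37).

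Of the Arl genes 8 of 10 were higher in the thymic lymphoma. Arl4a, which recruits Arf exchange factors to the plasma membrane, was at 1.05 and 29.9 FPKM (-3.91), and in the Peyer's patch lymphoma it ranked 112 of 112 members. At a level so near 1 FPKM the size of the gap depends on the constant added, and it ran from -2.53 to -4.70 over the alternatives. Arl8a and Arl8b, which couple lysosomes to kinesin motors, were both higher in the thymic lymphoma (7.60 and 25.8 FPKM, and 29.4 and 54.7 FPKM). Arl5c stood at 46.6 and 110.8 FPKM and Arl5a at 15.2 and 25.1 FPKM, whereas Arl5b, of the same trans-Golgi set, stood at 28.7 and 17.2 FPKM. Arl1, which anchors golgins at the trans-Golgi, was at 47.7 and 41.7 FPKM. Sar1a was at 53.4 and 62.9 FPKM and Sar1b at 42.2 and 93.2 FPKM. Preb, which encodes the GEF of Sar1, went the other way at 150.7 and 22.6 FPKM (2.68).

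The switches that turn Rabs off showed no common direction. Differences were above 0 for 5 of 14 Tbc1d genes, and 2 were 4-fold higher in the thymic lymphoma. Tbc1d22b was at 1.28 and 20.9 FPKM (-3.26, from -2.04 to -3.92 over the alternatives) and Tbc1d8b at 2.02 and 11.2 FPKM (-2.01), the latter past 4-fold in 3 of the 6 alternatives. Tbc1d31, the most abundant Tbc1d gene in the Peyer's patch lymphoma and known from centriolar satellites, was at 121.5 and 32.5 FPKM (1.87). Tbc1d1 and Tbc1d4, related GAPs that act on glucose transporter traffic, went in opposite directions, at 21.1 and 10.3 FPKM and at 10.9 and 29.0 FPKM. Tbc1d20, a GAP of Rab1, stood at 15.4 and 7.14 FPKM, against the direction of Rab1 itself. Tbc1d15, a GAP of Rab7, was level at 28.8 FPKM in both tumours, and so were Tbc1d2b (20.1 and 20.3 FPKM) and Tbc1d5, which acts with retromer (8.05 and 8.19 FPKM).

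Rab3gap1 and Rab3gap2, whose products form a single complex that inactivates Rab3 and activates Rab18, were unequal in level and direction. Rab3gap1, the catalytic subunit, was at 156 and 191 FPKM and Rab3gap2 at 13.6 and 4.61 FPKM. Of the effectors of Rab11, Rab11fip1 was at 5.72 and 30.2 FPKM (-2.22, past 4-fold in 3 of the 6 alternatives), Rab11fip2 at 3.75 and 6.84 FPKM and Rab11fip4 at 6.59 and 2.73 FPKM. Rab3ip, which encodes a GEF of Rab8, stood at 10.1 and 7.94 FPKM.

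TRAPP subunits had the highest family median, and 7 of 11 were higher in the Peyer's patch lymphoma. Both genes particular to the TRAPPII form were higher there, Trappc9 at 18.4 and 4.15 FPKM (1.91) and Trappc10 at 14.0 and 5.79 FPKM (1.14). Of the genes particular to TRAPPIII, which acts in autophagy, Trappc11 was at 38.6 and 11.9 FPKM and Trappc8 at 24.3 and 14.7 FPKM, while Trappc13 was level at 35.5 and 38.5 FPKM. The core, which all forms share, split into 3 higher and 3 lower. Trappc1 (155 and 43.5 FPKM), Trappc2l (73.0 and 30.6 FPKM) and Trappc2 (22.1 and 10.2 FPKM) were higher in the Peyer's patch lymphoma. Trappc5 (1.64 and 10.8 FPKM, -2.16), Trappc4 (29.0 and 51.3 FPKM) and Trappc6b (31.7 and 46.1 FPKM) were higher in the thymic lymphoma. Trappc5 lies opposite the model Gm45231 and was past 4-fold in 3 of the 6 alternatives.

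COPI genes lay close together except for the gamma subunit and Copb1. Copa, for the alpha subunit, stood at 111.7 and 94.5 FPKM, Copb2 at 74.7 and 55.1 FPKM, Cope at 85.1 and 115.7 FPKM and Copz1 at 79.0 and 77.6 FPKM. Copb1, which encodes beta-COP, was higher in the Peyer's patch lymphoma at 129 and 43.7 FPKM (1.54). The gamma subunit has alternative genes. Copg1 was at 33.7 and 24.9 FPKM and Copg2 at 7.63 and 34.4 FPKM (-2.04), so that Copg1 led in the Peyer's patch lymphoma and Copg2 in the thymic lymphoma. Copg2 was past 4-fold in 3 of the 6 alternatives and lies opposite the gene Mest.

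COPII showed the widest exchange within a set of paralogues. Sec24 is the coat subunit that selects cargo, and its 4 genes recognise overlapping groups of cargo. Sec24b reached 124.5 FPKM in the Peyer's patch lymphoma and 14.9 FPKM in the thymic lymphoma (2.98), and Sec24a at 1.24 and 34.7 FPKM (-3.99). The Sec24a difference ran from -2.67 to -4.70 over the alternatives. Each differed from its own level in the other tumour by more than any other COPII gene, in opposite directions. Sec24c (18.8 and 14.0 FPKM) and Sec24d (2.35 and 1.27 FPKM) differed by less than 2-fold. The other genes of the coat and its scaffold differed by less than 2-fold. Sec23b, the partner subunit of Sec24, stood at 73.6 and 67.9 FPKM, its relative Sec23a at 16.0 and 16.2 FPKM and the outer coat gene Sec31a at 102.6 and 86.1 FPKM. Sec13, which also belongs to the nuclear pore, was at 60.5 and 36.1 FPKM, the scaffold Sec16a at 24.95 and 14.6 FPKM and Sec23ip at 24.1 and 37.2 FPKM.

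Promoter windows of Sec24a and Sec24b, taken before the starts in RefSeq, are shown because these genes went in opposite directions more widely than any other paralogues measured. They are the 250 bases before the start in RefSeq on build GRCm38.p6, both on the minus strand, from chr11:51756835-51757084 for Sec24a and chr3:130060908-130061157 for Sec24b, written 5′ to 3′ with each CG step in capitals. The first has 8 such steps and 46.0% G and C, the second 21 and 66.0%.
Sec24a: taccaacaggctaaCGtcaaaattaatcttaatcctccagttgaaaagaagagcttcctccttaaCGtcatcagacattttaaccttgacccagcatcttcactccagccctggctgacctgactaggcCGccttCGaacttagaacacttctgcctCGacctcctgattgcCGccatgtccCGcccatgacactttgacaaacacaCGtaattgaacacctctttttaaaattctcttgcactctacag
Sec24b: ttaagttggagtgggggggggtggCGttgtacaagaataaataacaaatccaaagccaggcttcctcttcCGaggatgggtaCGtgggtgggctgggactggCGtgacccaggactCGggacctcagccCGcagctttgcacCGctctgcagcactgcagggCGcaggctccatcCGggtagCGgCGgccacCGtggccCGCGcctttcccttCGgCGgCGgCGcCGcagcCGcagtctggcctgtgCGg
Over all 32851 promoter windows in the table the median was 6 CG steps, and over the 112 windows of 94 matched members it was 20. The Sec24a window thus lay nearer the median of all windows and the Sec24b window nearer that of members. Whether either start is the one used in these tumours was not tested, so a window may not be the active promoter.

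Motifs of known regulators were searched on both strands of the same 250 bases. The unfolded protein response element TGACGTGG, which ATF6 and XBP1 can bind, was found in 3 of the 112 member windows (2.68%) and in 0.563% of all windows. Those 3 belong to Arf1, Copb1 and Sec24d, and they are shown with the element in capitals (its reverse complement in Copb1), the first at chr11:59228213-59228272 on the minus strand, the second at chr7:114254681-114254734 on the minus strand and the third at chr3:123267444-123267495 on the plus strand.
Arf1: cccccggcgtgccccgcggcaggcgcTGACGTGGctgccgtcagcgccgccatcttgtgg
Copb1: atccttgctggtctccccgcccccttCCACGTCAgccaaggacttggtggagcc
Sec24d: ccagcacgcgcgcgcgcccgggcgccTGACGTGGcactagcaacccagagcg
The 3 genes differed by -0.70, 1.54 and 0.56, so they did not share a direction, and Xbp1 itself was at 23.3 and 37.9 FPKM. The E box CACGTG was in 11.6% of member windows and 6.02% of all, the E boxes CAGCTG and CACCTG, of the kind E proteins bind, in 7.14% and 13.4% of member windows against 13.0% and 17.2% of all, and the CCAAT box in 38.4% against 33.8%. The longer ER stress response element, which contains a CCAAT box, was in 0 member windows and in 0.113% of all. The median count of CG steps was higher in member windows than in all windows, as given above. TGACGTGG and CACGTG contain a CG step and were more frequent in member windows, while CAGCTG and CACCTG lack it and were less frequent. The CCAAT box, without such a step, and the longer element, with it, went the other way. Some genes also have several windows. Whether the shares differ beyond base composition was not tested. A match describes letters in a window and does not show binding.

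The translocon was the most even of the families, with 6 of 7 genes within 2-fold. Sec61a1, which forms the channel, was at 127 and 126 FPKM, Sec61b at 463 and 441 FPKM and Sec61g at 232 and 194 FPKM. Sec62 (46.3 and 48.7 FPKM) and Sec63 (55.3 and 54.6 FPKM), which serve transport after translation, were as level. Of Sec61b, 84.0% of the transcript is shared with the model Gm10320, so its level is less certain. The widest differences were those of the alternative catalytic subunits of signal peptidase, of which only Sec11a passed 2-fold. Sec11a was at 515 and 207 FPKM (1.31) and Sec11c at 335 and 435 FPKM (-0.38).

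The Sec22 genes ranged more widely. Sec22b, an ER-Golgi SNARE, was at 71.6 and 279 FPKM, and its difference of -1.95 was just short of 4-fold. Sec22a was at 7.72 and 103 FPKM (-3.58), past 4-fold in all 6 alternatives, and Sec22c at 23.4 and 10.7 FPKM (1.06). All 6 Arl partner genes had differences above 0, and 4 of them lay above the median of all genes. The widest were Arl2bp, an effector of Arl2, at 73.5 and 24.4 FPKM, and the ER-shaping protein gene Arl6ip1 at 198 and 84.4 FPKM. Arl14ep stood at 52.0 and 24.5 FPKM and Arl6ip6 at 18.9 and 14.0 FPKM, while Arl6ip5 (82.3 and 81.5 FPKM) and Arl6ip4 (73.1 and 71.3 FPKM) were level. Sec14l1 was at 58.5 and 35.8 FPKM, and Rab10os at 16.1 and 25.4 FPKM beside Rab10 at 75.9 and 92.8 FPKM.

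**Figure D4:**
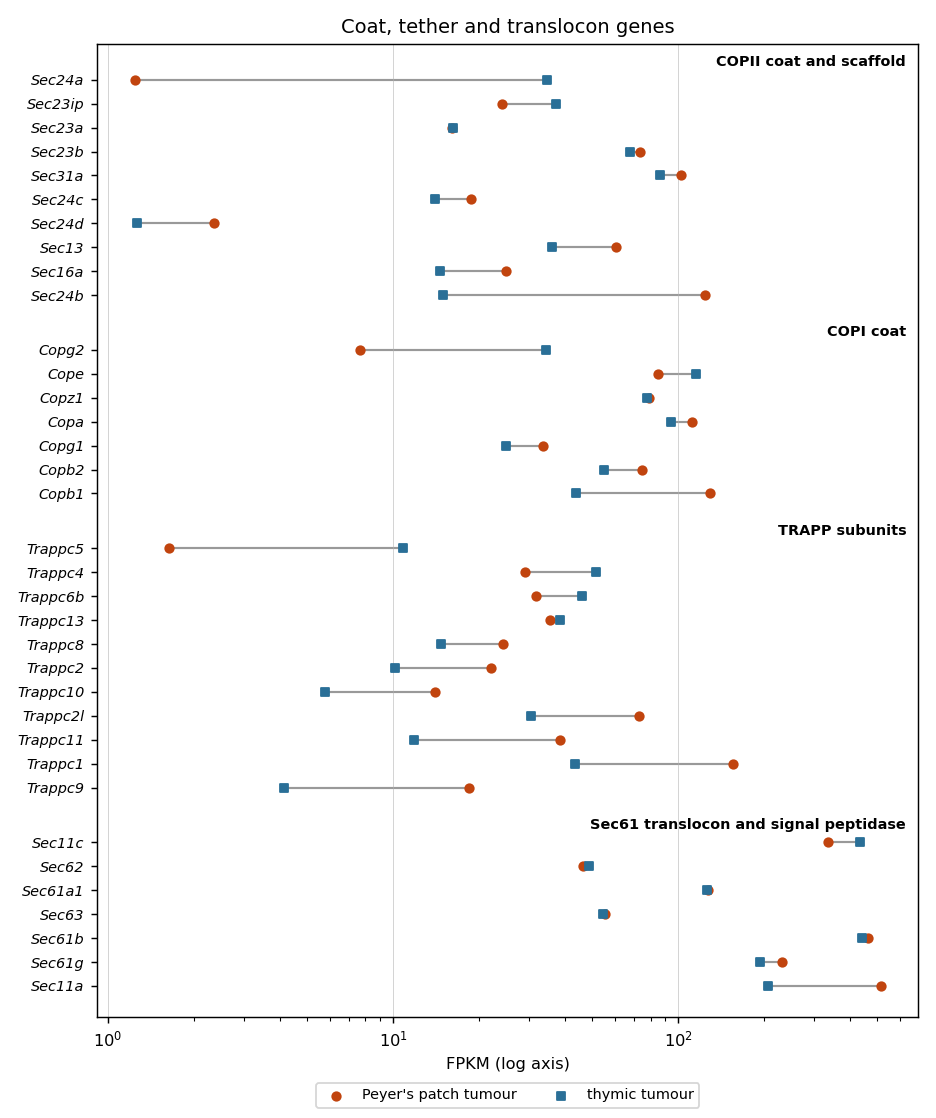
FPKM (log axis) of COPII, COPI, TRAPP and translocon genes in the Peyer's patch lymphoma (circles) and the thymic lymphoma (squares), 1 library each, with grey lines joining the values of a gene. Sec24a and Sec24b show the widest gaps, in opposite directions, and the Sec61, Sec62 and Sec63 symbols nearly coincide.

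Shares within a paralogue set do not change when a library is multiplied by a single factor, as in scaling by median ratio, upper quartile or total. The standard scores are not such a scaling, because they rescale the log2 values. Summed levels of a set do change with scaling and are given as reported. In 16 sets with 37 measured genes, the summed levels of 9 sets were within 2-fold between the tumours. That of 1, Arl4, was at least 4-fold apart. The leading gene was the same in both tumours in 10 sets and another in 6, which were Rab1, Arl4, Sar1, Sec11, Sec24 and Copg. Sec24b made up 84.8% of Sec24 in the Peyer's patch lymphoma and 23.0% in the thymic lymphoma, and Sec24a 0.844% and 53.4%. Copg1 went from 81.5% to 42.0% of the gamma COP sum, and Rab1 from 44.9% to 76.6% of Rab1 and Rab1b together. Sec11a made up 60.6% and 32.2% of the signal peptidase pair. Sar1a made up 55.9% and 40.3% of Sar1. Arl4a went from 23.3% to 83.8%, on a sum of only 4.52 FPKM in the Peyer's patch lymphoma.

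Other sets kept their composition. Rab2, Rab6, Rab8, Rab11 and Sec23 shifted by less than 10 percentage points, with Rab8a at 97.3% and 93.7% of Rab8, Rab6a at 91.4% and 92.4% of Rab6 and Sec23b at 82.1% and 80.7% of Sec23. Rab11a made up 73.7% and 67.2% of Rab11, and Rab2a 87.8% and 84.9% of Rab2. As reported, the Rab11 and Rab6 sums were both higher in the thymic lymphoma, by 1.05 and 0.56, with the composition little changed. The log2 factor between the libraries for the same summed FPKM was -0.541, nearly the size of the Rab6 difference. Rab4, Rab5, Arl5, Arl8 and Sec22 kept their leading gene, with largest shifts from 11.5 points in Arl8 to 20.9 points in Arl5. Sar1, whose leading gene changed, shifted by 15.6 points, within that range.

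**Figure D5:**
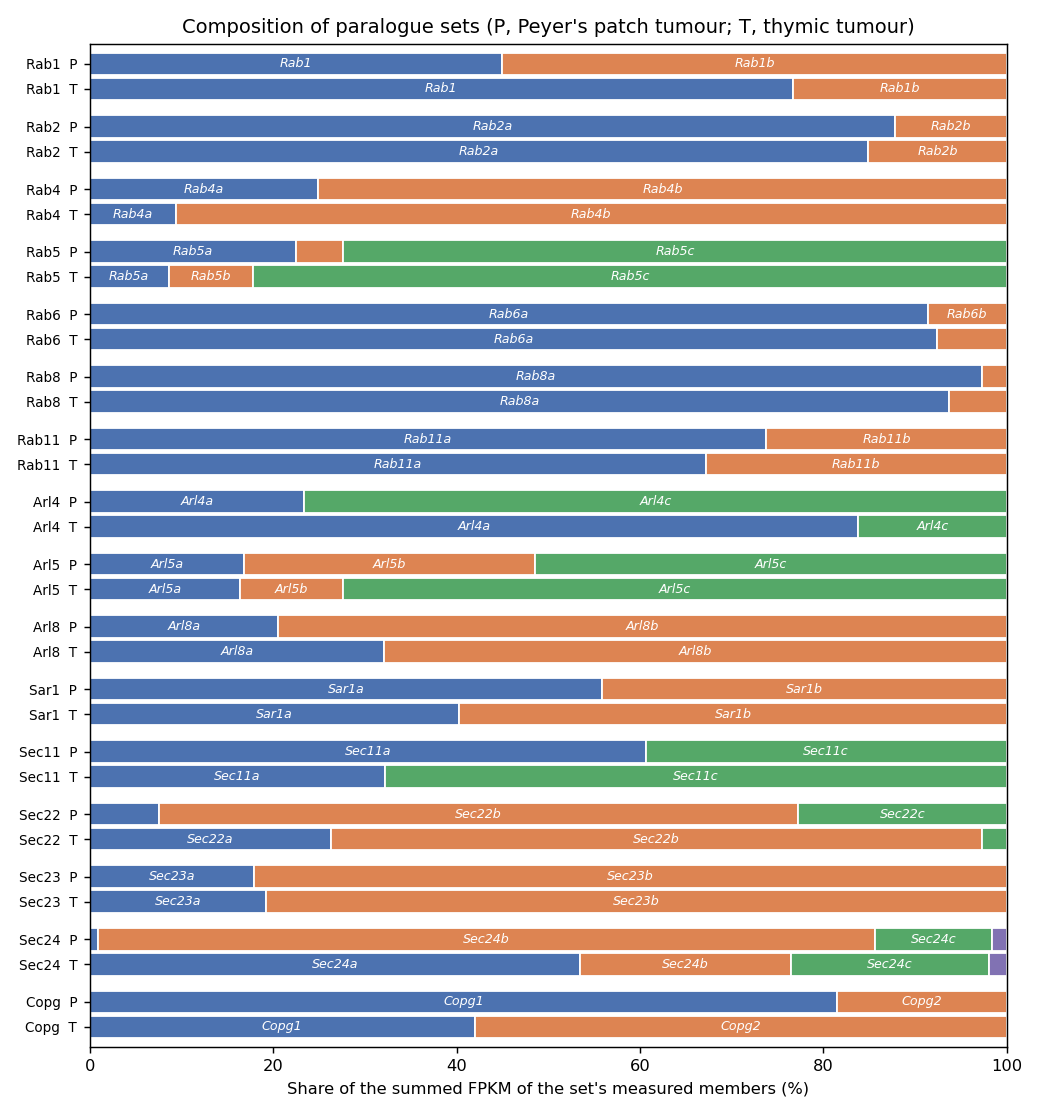
Share (%) of the summed FPKM of each paralogue set held by each measured gene, in the Peyer's patch lymphoma (P) and the thymic lymphoma (T), 1 library each. Segments under 8% are not named; the blue and orange shares of Sec24 change the most, from 0.844% and 84.8% to 53.4% and 23.0%.

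Genes that act with the members but lie outside the rule were apart about as often as all genes. Of 290 listed, 189 were measured, and 35 (18.5%, against 19.9% of all genes) were at least 4-fold apart, 11 higher in the Peyer's patch lymphoma and 24 in the thymic lymphoma, with a median of -0.17. Exchange factors of Rabs had the highest share, 8 of 22. Among these, Dennd5a was at 1.64 and 37.5 FPKM, Dennd6a at 2.42 and 43.6 FPKM, Dennd2c at 8.86 and 101 FPKM and Als2cl, a regulator of Rab5, at 38.1 and 4.02 FPKM. Both Rab5 effectors of the APPL family were lower in the Peyer's patch lymphoma, Appl1 at 5.23 and 119 FPKM and Appl2 at 4.36 and 269 FPKM. Of 22 other Rab GAPs and effectors 5 were apart, among them Rilpl2 (58.8 and 8.39 FPKM) and Usp6nl, a GAP of Rab5 (2.93 and 17.9 FPKM). Chm, which escorts new Rabs to the enzyme that adds their lipid anchor, was at 5.79 and 66.5 FPKM and was the only one of 10 genes of that list that was apart.

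Gbf1, the 1 of 7 Arf GEFs that was apart (14.3%, against 19.9% of all genes), was higher in the thymic lymphoma. So were the 4 of 20 Arf GAPs and effectors that were apart (20.0%). The last were Gga2, a trans-Golgi adaptor (7.69 and 80.9 FPKM), Elmod2 (2.49 and 24.1 FPKM), Agap2 (1.54 and 11.7 FPKM) and Smap2 (11.5 and 54.6 FPKM). SNAREs, which fuse the vesicles, had 5 of 35 apart (14.3%). Stx1a (47.7 and 2.48 FPKM) and Stx6 (49.6 and 5.84 FPKM) were higher in the Peyer's patch lymphoma, and Snap23 (24.2 and 159.7 FPKM) and Vamp5 (0.166 and 5.33 FPKM) in the thymic lymphoma. The list of tethers, in which the Sar1 GEF gene Preb was also placed, had 5 of 37 apart (13.5%). Beside Preb these were the HOPS gene Vps39 (120.4 and 16.8 FPKM), Cog5 (15.6 and 1.73 FPKM) and the exocyst gene Exoc1 (6.77 and 43.8 FPKM). The last was Vps41 of HOPS, chosen after its value was seen (8.12 and 36.3 FPKM). Clathrin and adaptor genes had 5 of 24 apart (20.8%). Higher in the thymic lymphoma were Ap1s3 at 34.9 and 621 FPKM, Ap3s2 at 0.347 and 10.8 FPKM, Ap2a1 at 4.53 and 30.7 FPKM and Ap4e1 at 19.2 and 114 FPKM, and higher in the Peyer's patch lymphoma was Ap3m1 at 62.2 and 13.2 FPKM, named after its value was seen. Of 12 retromer genes 1 was apart (8.33%), Vps26a at 2.69 and 14.3 FPKM.

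Most markers of erythroid, myeloid and MHC class II cells lay above their Peyer's patch level in the thymic lymphoma. The 5 measured erythroid markers of 11 summed to 2671 FPKM in the Peyer's patch lymphoma and 96505 FPKM in the thymic lymphoma, with 4 of 5 higher there. MHC class II and antigen presentation markers (5 of 9 measured) summed to 336 and 1874 FPKM, with 4 of 5 higher in the thymic lymphoma. B cell markers (3 of 8) summed to 1593 and 10106 FPKM, most of it Igkc (1428 and 9811 FPKM). Cd79b (42.9 and 242 FPKM) was also higher in the thymic lymphoma, and Cd72 (122 and 53.5 FPKM) in the Peyer's patch lymphoma. Macrophage and neutrophil markers (4 of 10) summed to 287 and 843 FPKM, with all 4 higher in the thymic lymphoma. T cell markers went the other way, with 12 of 15 higher in the Peyer's patch lymphoma and a median of 1.31. Epithelial markers (2 of 7) summed to 104 and 79.4 FPKM, and the 1 measured plasma cell marker of 4, Xbp1, is given above. Fibroblast and endothelial markers (2 of 7) summed to 173 and 165 FPKM but went in opposite directions. Fn1 was at 16.0 and 84.8 FPKM (-2.33) and Pecam1 at 157 and 80.3 FPKM (0.96). No measured marker was at 0. The part of these cells in the differences of the traffic genes was not tested.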

How the data were processed

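Gene expression was measured by RNA sequencing of 2 tumour libraries, 1 per site. The authors used TopHat, Cufflinks, Picard and GATK with mouse build mm9, per the submitters' processing notes; no version or annotation is named, nor how genes were picked for the table. Per the file headers the authors deposited an FPKM and a standard score for each gene and library. The deposited FPKM values are on a log2 scale, as log2(FPKM + 1): undone that way, all 8132 and 8224 values of at least 1 came back to 6 significant digits within a relative tolerance of 2e-07, against 96.9% and 97.9% of all values with 0 added and 15.4% and 15.3% read as natural logarithms; no source states the constant. The deposited score is the log2 value shifted and rescaled per library.

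FPKM was computed from the log2 values. Genes with at least 1 FPKM in a library entered (8245 of 8249), and 1 was added before differences were taken. A single library per site allows no test, SD or interval. Members, families and lists were chosen with earlier results of these data known. Members were named where at least 4-fold apart or within 0.15 of that line, as leading or level genes of a family, or as paralogues; partner genes where 4-fold apart, at most 4 a list. Alternatives were added constants of 0.1 and 5, no filter or 5 FPKM, thresholds of 2-fold and 8-fold, scaling by median ratio, upper quartile or total, the standard scores returned to log2 units, and leaving out Rab10os and Sec14l1. Near-identical copies (at least 98% identity over 100 bases) were searched with BLAST 2.17.0 in GENCODE M21 transcripts; 14 members had one and 17 overlapped a gene on the same strand. No source used here says how reads were counted by strand, so reads of the 42 members that overlap a gene on the other strand may be shared. Promoters were RefSeq's, build GRCm38.p6. Calculations used Python 3.11.15 with pandas 2.3.3 and NumPy 2.4.6, and were tested on simulated data.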

Additional observations from a re-analysis of the deposited data

How the results depend on the processing

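With 5 added instead of 1, members 4-fold apart numbered 1 above and 6 below their thymic level (2 and 10 as reported). These were 6.25% of members, against 12.9% of all genes (10.7% and 19.9% as reported). The counts were 2 and 11 by median ratio and 2 and 10 by upper quartile. With the same summed FPKM and with the authors' standard scores the counts were 10 and 5. Both settings gave 13.4% of members, against 22.3% of all genes. At 2-fold the counts were 21 and 25 (41.1%, against 50.2%), and at 8-fold 0 and 5 (4.46%, against 7.07%). The standard scores also moved the median of TRAPP subunits to 1.65 and that of Rab regulators and effectors to 0.62. Medians of the other families moved by less than 1.5-fold in every alternative of constant, filter or scaling. Leaving out Sec14l1 left the 3 Sec22 genes, whose middle difference was that of Sec22b, -1.95, against -0.63 with Sec14l1. No member that was 4-fold apart changed direction in the 6 alternatives run for single genes. Of the 112 members 85 kept their sign in all 6, and the most sign changes, 18, came with the same summed FPKM. The log2 factor of the Peyer's patch library over the thymic library was -0.541 there, against 0.054 by median ratio and 0.025 by upper quartile. By arithmetic, members slightly below 0 therefore came to lie above it. The signs of the nearly level translocon genes depended on scaling, and 2 of 7 kept theirs. No paired analysis was possible because each tumour has 1 library. Leaving out a library was not possible for the same reason. Without counts, the error of low values such as Sec24a, Arl4a and Tbc1d22b in the Peyer's patch lymphoma is unknown.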
